A study of Caenorhabditis elegans with 2 samples.

Results

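The Notch and Wnt pathway genes examined here are 45 protein-coding genes of Caenorhabditis elegans, 20 of the Notch pathway and 25 of the Wnt pathway, taken by name from a fixed list out of 19973 protein-coding genes on the nuclear chromosomes. Their occupancy by ZTF-11, the worm's MYT1-type zinc finger protein, was measured by chromatin immunoprecipitation and sequencing in L2 larvae. There was 1 group, with 2 biological replicates, and no second condition. Both replicates came from strain OP236, which carries the unc-119(ed3) mutation on chromosome III and the transgene array wgIs236, and expresses ZTF-11 with GFP and FLAG at its C terminus. All values therefore come from a single transgenic line, from whole animals of mixed sex, and a region cannot be assigned to a tissue. Samples without the tagged protein were not analysed here.

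Each value is the authors' signal score of a region, taken relative to a control, and the notes with the files do not name its scale. A gene window reached from 1500 bp upstream of the 5′ end to the gene end, and a region was placed by its summit, the point of highest signal. A pooled region was counted as seen in a replicate when its summit lay inside a region of that replicate. Replicate regions that overlap it away from the summit were not counted. Regions came from 4 lists on ce11. The list of each replicate held 29974 nuclear regions, the list of both replicates pooled held 20201, and the authors' thresholded set held 188. The first 3 lists mix peaks with background, and their median nuclear scores were 6.62 for replicate 1, 5.58 for replicate 2 and 11.7 for the pooled list. Scores were compared only within a list. Reads per sample are unknown, so no precision can be attached to a single score. With 1 group there is no contrast to test, and everything below is a description.

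In Notch signalling a ligand on one cell engages a receptor on its neighbour, proteases release the intracellular part of the receptor, and this part enters the nucleus and joins the DNA-binding protein LAG-1. In Wnt signalling a secreted ligand binds a Frizzled or related receptor, and Dishevelled passes the signal to beta-catenins, which act with the TCF protein POP-1 in the nucleus. In the worm, both pathways pattern the vulva and set the fates of daughter cells, and Wnt signals guide migrating neuroblasts such as those of the Q lineage. MYT1-family proteins are known as repressors in developing neurons, and in vertebrates Notch pathway genes are among their known targets.

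ZTF-11 occupancy past the authors' threshold was found at 2 of the 45 genes, both of the Wnt pathway, mig-5 and mom-5. Across all protein-coding genes 1.12% had a thresholded summit in the window. A count of 2 is small, and no enrichment is read from it. None of the 20 Notch genes had a thresholded summit. A further 33 members had a region in the pooled list below the threshold, and 10 had no pooled region.

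The strongest region among the members lay at mig-5, 1 of the 3 Dishevelled genes and a cytoplasmic relay of the Wnt signal (WBGene00003241, chromosome II, 8182323 to 8185023, minus strand). The pooled region ran from 8185004 to 8185379, with its summit 169 bp upstream of the mig-5 5′ end and a score of 42.9. The region at the same place scored 22.4 in replicate 1 and 19.8 in replicate 2. It ranked 71 of 188 thresholded nuclear peaks, and its regions ranked 124 and 101 of 29974 in the replicates, so both placed it near the top of their lists. The summit also lay 251 bp upstream of cct-1, a chaperonin subunit gene transcribed in the other direction, and the region cannot be assigned to 1 gene of this divergent pair. The sequence within 50 bp of the summit on either side is shown because this is the only member promoter in the thresholded set (RefSeq genome, ce11, chrII:8185142-8185242, plus strand, capitals mark TGGGAA).
mig-5: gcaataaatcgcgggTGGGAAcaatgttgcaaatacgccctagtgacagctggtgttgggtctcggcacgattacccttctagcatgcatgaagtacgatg

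The window holds TGGGAA, the core letters of sites read by LAG-1 and its relatives, and neither AAAGTT nor CTTTGA. Its GC content was 50.5%, against a mean of 48.8% ± 8.03 (SD, n = 188) at the thresholded nuclear summits and 33.6% ± 9.25 (SD, n = 20201) over the pooled list. The TGGGAA letters occurred in 4.79% of thresholded nuclear windows and 6.25% of pooled windows of the same length, and a match is a description of the sequence, not a bound site.

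The other thresholded region lay at the opposite end of its gene. mom-5 encodes a Frizzled receptor (WBGene00003397, chromosome I, 9965574 to 9970037, plus strand). Its summit was in the 3′ UTR, 4100 bp downstream of the 5′ end and 363 bp before the gene end, outside the convergent gene tsp-7, whose 3′ end overlaps that of mom-5. The score was 34.7 in the pooled list, 17.4 in replicate 1 and 11.1 in replicate 2. It ranked 158 of 188 thresholded nuclear peaks, near the lowest of them at 32.9, and its regions ranked 300 and 1132 in the replicates. The mig-5 region was thus high in both replicates, and the mom-5 region was higher in the list of replicate 1 than in that of replicate 2. With the 210 highest regions of replicate 2 alone, or of replicate 1 alone, mig-5 was the 1 member found and mom-5 was not. mom-5 also held 2 weaker pooled regions in introns, with scores of 11.6 and 11.1. Both summits lay in a replicate 2 region and neither in a replicate 1 region, though a replicate 1 region of 8.96 overlapped the pooled region of 11.6.

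mom-5 lies 55.03 kb from ztf-11, the tagged gene, on the same chromosome, and a transgene that expresses ZTF-11 carries ztf-11 sequence of its own. Pooled regions numbered 12 in the first 20 kb beyond ztf-11, 6 in the next 20 kb and 3 in the bin from 40 to 60 kb that holds the mom-5 summit, against 4.03 per 20 kb over the nuclear genome. The bin from 60 to 80 kb held 7. In the bin of mom-5, replicate 1 had 7 regions and replicate 2 had 6, against 5.98 per 20 kb over the genome in each. In the thresholded set the bin of mom-5 held 1 peak, that of mom-5 itself, and the bin from 60 to 80 kb held 1. The other bins within 100 kb held none. The thresholded mean was 0.0375 per 20 kb over the genome and 0.049 over chromosome I. The bin next to ztf-11 held the most regions of the 5 bins within 100 kb on this side in the pooled list and in each replicate list. The bin of mom-5 was below the genome mean in the pooled list, at or slightly above it in the replicates, and above it in the thresholded set. How far the transgene sequence extends is not known here, and whether extra gene copies contribute to the mom-5 score was not tested.

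**Figure D1:**
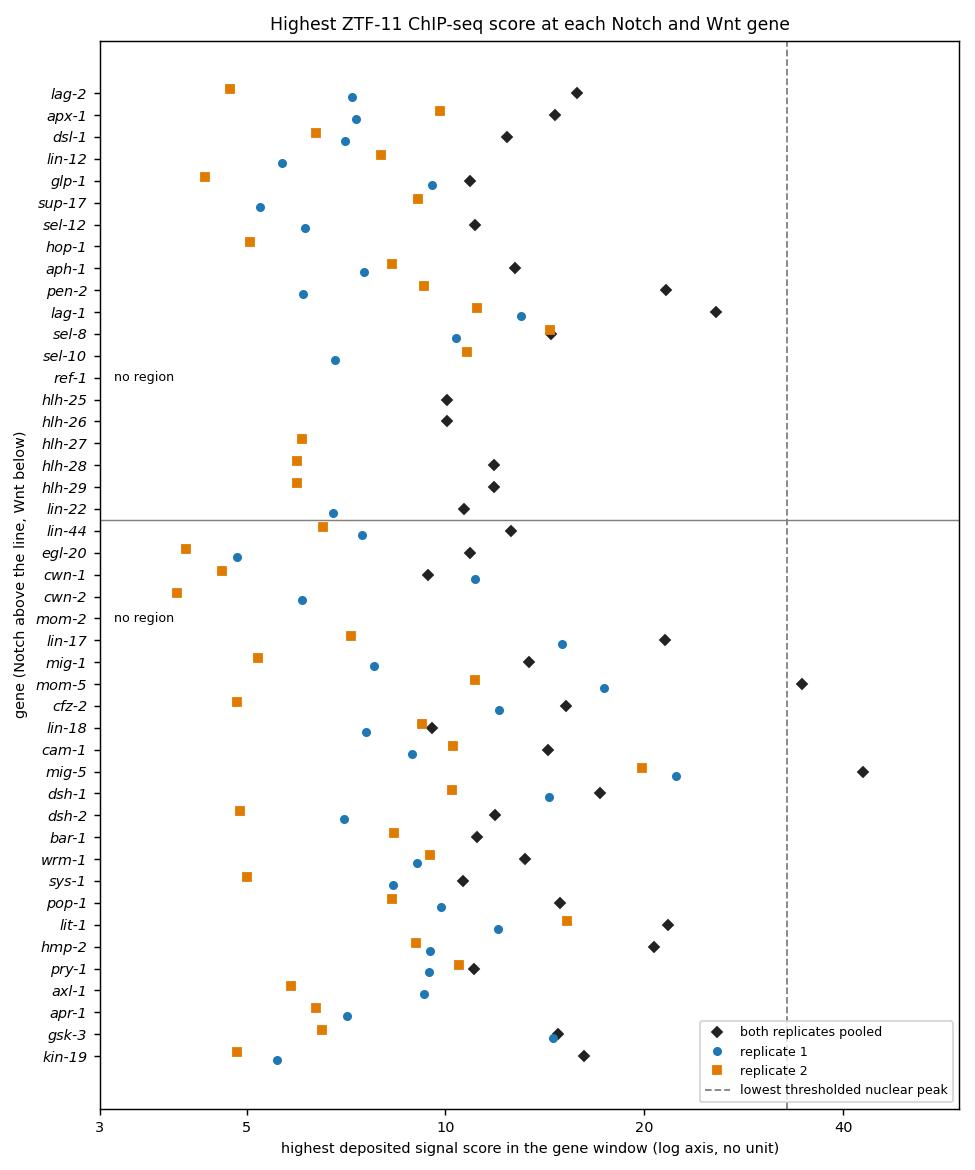
Highest deposited signal score in the window of each of the 45 genes, on a log axis, in the pooled list (diamonds), replicate 1 (circles) and replicate 2 (squares). Only mig-5 at 42.9 and mom-5 at 34.7 lie to the right of the dashed line at 32.9, the lowest thresholded nuclear peak, and ref-1 and mom-2 have no region in any list.

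Among the Notch genes the highest regions were at the nuclear factor gene lag-1 and at pen-2. lag-1 encodes the CSL protein that carries Notch output to DNA (WBGene00002245, chromosome IV, 6095407 to 6110655, plus strand). Its highest region had the summit in an intron, 1836 bp downstream of the 5′ end, and scored 25.7 in the pooled list, 13.0 in replicate 1 and 11.2 in replicate 2. It ranked 381 of 20201 pooled regions, and its regions ranked 1068 and 1078 in the replicates. The replicates were close at this site, which stayed below the lowest thresholded score of 32.9. lag-1 held 7 other pooled regions, with scores from 9.38 to 14.2, and 1 of these, in an intron, was also in both replicate lists.

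pen-2, a subunit of the gamma-secretase that cuts the receptor (WBGene00003975, chromosome III, 11343322 to 11344147, plus strand), had a pooled region with its summit 860 bp upstream and a score of 21.5. At the same place replicate 1 scored 6.09 and replicate 2 scored 9.29. These regions ranked 18452 and 2623 of 29974 in the replicates, so a pooled rank of 720 came with a low place in replicate 1. The summit lay 646 bp inside the neighbouring gene T28D6.6, whose 5′ end is nearer than that of pen-2. The windows of the same length at both genes are shown to set their composition beside that at mig-5 (RefSeq genome, ce11, plus strand, chrIV:6097193-6097293 for lag-1 and chrIII:11342412-11342512 for pen-2, no capitals because no motif searched was found).
lag-1: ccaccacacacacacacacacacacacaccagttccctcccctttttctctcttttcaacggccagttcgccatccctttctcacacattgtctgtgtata
pen-2: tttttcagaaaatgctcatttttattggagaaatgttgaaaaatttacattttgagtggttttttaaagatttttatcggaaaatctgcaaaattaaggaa

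None of the 3 motifs searched was in either window. The lag-1 window opens with a CA repeat and had a GC content of 49.5%, and the pen-2 window is AT-rich, with 23.8%.

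The other Notch nuclear factor gene, sel-8, which encodes the Mastermind-like coactivator, held 7 pooled regions, all of them in introns. Their scores ran from 10.05 to 14.5, and the highest, 8362 bp into the gene, scored 10.4 in replicate 1 and 5.04 in replicate 2. Replicate 2 had its own highest region in sel-8 at 14.4, where the pooled score was 10.1 and replicate 1 had no region. Both Notch nuclear factor genes are long, with windows of 16.7 kb for lag-1 and 15.7 kb for sel-8. Together they had 0.46 pooled summits per kb, against 0.20 per kb over the windows of all protein-coding genes. The difference was smaller in the replicate lists, with 0.37 per kb in replicate 1 and 0.31 in replicate 2, against 0.30 in each for all genes.

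All 3 Notch ligand genes had pooled regions, and none was strong. lag-2, a ligand that signals to the germline, had a summit 13 bp upstream of its 5′ end. This region scored 15.8 in the pooled list, 6.14 in replicate 1 and 4.11 in replicate 2. lag-2 also had 1 in its 3′ UTR, at 13.3, with 7.22 and 4.72 in the replicates. The single dsl-1 region, 1248 bp upstream, scored 12.4, with 7.04 and 6.36 in the replicates. At apx-1 the highest of 2 pooled regions lay in the 3′ UTR and scored 14.7, with 9.83 in replicate 2 and no region there in replicate 1. Both lag-2 regions and the dsl-1 region were thus seen in both replicates, at scores of 7.22 or less.

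The Notch receptor genes had no pooled region above 10.9. glp-1, the receptor of the germline and early embryo, had 3 pooled regions within 1660 bp downstream of its 5′ end, with scores of 10.2, 10.9 and 10.9. All of them were in replicate 1, at 6.94 to 8.34, and none in replicate 2. lin-12, the receptor of the vulval and somatic gonad decisions, had no pooled region. Replicate 1 had 2 regions there, of which the higher scored 5.66, and replicate 2 had 1 at 7.99, at other places in the gene.

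Among the genes for receptor processing, turnover and output, pen-2 had the highest pooled region. Beside pen-2, aph-1, another gamma-secretase subunit gene, had a pooled region 1437 bp upstream at 12.7, with 8.29 in replicate 2. The presenilin gene sel-12 had 1, 696 bp upstream, at 11.1, with 6.12 in replicate 1. The second presenilin gene hop-1, the ADAM protease gene sup-17 and the F-box gene sel-10, which promotes turnover of LIN-12, had no pooled region. Replicate 2 had a region of 10.8 at sel-10, 266 bp upstream, which ranked 1280 of 29974, while the highest in replicate 1 was 6.82 at another place. At sup-17 the highest scores were 5.24 in replicate 1 and 9.08 in replicate 2, the latter 645 bp upstream and ranked 2870. hop-1 had a region of 5.06 in replicate 2 and none in replicate 1. Of the 7 bHLH genes, which include the Notch targets of the REF-1 family, ref-1 had no region in any of the 4 lists. lin-22, a relative of the fly hairy gene, had 2 pooled regions, the higher at 10.7, both of them outside replicate 2.

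Among the remaining bHLH genes, 4 share much of their sequence with other places in the genome, and reads cannot be placed with certainty there. In hlh-28 and hlh-29, 60.6% of the 50-base words of the window occurred elsewhere in the genome, and in hlh-25 and hlh-27 the shares were 35.4% and 35.8%. In hlh-26 the share was 6.54%. No source used here says how reads with several places were treated. hlh-28 and hlh-29 shared 1 pooled region between them at 11.8, seen in replicate 2 at 5.96. hlh-25 and hlh-26 shared 1 at 10.1 that was in neither replicate, and hlh-27 had a region of 6.07 in replicate 2 only. None of the 7 bHLH genes had a summit in both replicate lists.

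On the Wnt side, the ligand genes had few pooled regions, none above 12.6. lin-44, which polarises cells of the tail, had a pooled region 371 bp upstream at 12.6, with 6.53 in replicate 2 and none at that place in replicate 1. egl-20, which guides Q neuroblasts, had 1 in a coding exon at 10.9, with 4.84 in replicate 1. cwn-1 had 1 in an intron at 9.43 that was in neither replicate at that place, while replicate 1 had a region of 11.1 elsewhere in the window. cwn-2 had no pooled region, with highest scores of 6.07 and 3.93 in the replicates. mom-2, the ligand of early embryonic polarity, had no region in any list.

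The Wnt receptor genes all had pooled regions, 18 in 6 genes. Beside mom-5, the highest was at lin-17, a Frizzled gene (WBGene00003006, chromosome I, 2706883 to 2717549, plus strand), 540 bp upstream of the 5′ end, with a pooled score of 21.5. Replicate 1 scored 15.0 there, which ranked 548, and replicate 2 had no region at that place. A lin-17 intron region 1615 bp downstream of the 5′ end scored 17.8 in the pooled list, 15.0 in replicate 1 and 5.21 in replicate 2. Both of these lin-17 regions were therefore mainly features of replicate 1.

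cfz-2, another Frizzled gene, showed the same pattern, with a region in its 3′ UTR of 15.2, 12.1 in replicate 1 and none in replicate 2. cam-1, which encodes a ROR receptor tyrosine kinase, had 5 pooled regions, the highest at 14.3 in an intron and in neither replicate. Its intron regions of 13.0 and 10.02 were in both. The first scored 5.38 in replicate 1 and 10.3 in replicate 2, the other 4.84 and 6.51. The Frizzled gene mig-1 had 2, the higher at 13.4, with 7.79 in replicate 1 only. lin-18, the Ryk gene, had 2, the higher at 9.56, with its summit in a replicate 2 region of 4.35. A replicate 1 region of 7.59 overlapped this pooled region away from its summit.

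The other Dishevelled genes stood well below mig-5. dsh-1 had 3 pooled regions, the highest 927 bp upstream of its 5′ end at 17.1, with 8.20 in replicate 1 and 10.2 in replicate 2. A dsh-1 intron region scored 15.8, with 14.3 in replicate 1 and none there in replicate 2. dsh-2 had 1, in a coding exon, at 11.9, which was in neither replicate at that place.

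Of the nuclear arm, lit-1, the Nemo-like kinase that regulates POP-1, carried the most regions of any member, 13 in a window of 23.9 kb, the longest of the 45. Its highest (WBGene00003048, chromosome III, gene from 13701991 to 13724404, plus strand) had its summit 1279 bp upstream and scored 21.8, with 6.82 in replicate 1 and 6.72 in replicate 2. Replicate 1 had 16 regions in the lit-1 window and replicate 2 had 14, but only 4 summits of each lay in a region of the other. The next highest, in an intron 19405 bp downstream of the 5′ end, scored 18.0, with 10.4 and 8.11 in the replicates. Replicate 2 reached 15.3 in an intron where neither the pooled list nor replicate 1 had a region.

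kin-19, the casein kinase gene of the beta-catenin destruction complex (WBGene00002202, chromosome III, 4083994 to 4086636, minus strand), had a single pooled region 1146 bp upstream at 16.2. It scored 5.57 and 4.85 in the replicates, ranks of 22277 and 20555 of 29974, beside a pooled rank of 2765. Both kin-19 scores were below the median of their list, while the pooled score was above the pooled median. At lit-1 both replicate scores were above their medians. The windows at lit-1 and kin-19 are shown because they are among the highest pooled regions of the members (RefSeq genome, ce11, plus strand, chrIII:13700662-13700762 for lit-1 and chrIII:4087732-4087832 for kin-19, no capitals because no motif searched was found).
lit-1: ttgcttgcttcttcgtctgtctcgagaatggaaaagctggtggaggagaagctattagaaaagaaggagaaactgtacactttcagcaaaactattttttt
kin-19: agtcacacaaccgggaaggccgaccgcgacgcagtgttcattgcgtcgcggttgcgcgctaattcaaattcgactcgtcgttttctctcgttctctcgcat

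Neither window holds AAAGTT, the core letters of MYT1-type binding sites, nor TGGGAA or CTTTGA. GC content was 38.6% at lit-1 and 55.4% at kin-19.

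Apart from hmp-2, the beta-catenin and TCF genes had no pooled region above 14.9. pop-1, the only TCF gene of the worm, held 5 pooled regions, from 12.4 to 14.9, of which 2 were upstream. The highest, 691 bp upstream, scored 9.84 in replicate 1 and was not in replicate 2, and the other upstream region, at 14.8, scored 7.31 in replicate 2 and was not in replicate 1. wrm-1, the beta-catenin of embryonic asymmetric division, had 1, 770 bp upstream, at 13.2, with 6.12 and 9.49 in the replicates. bar-1, the beta-catenin of canonical Wnt signalling, had 2 in the pooled list, the higher at 11.2, and none in replicate 1. sys-1, a diverged beta-catenin that partners POP-1, had 2, the higher at 10.7, with 5.88 and 5.003 in the replicates. hmp-2, the beta-catenin of adherens junctions, had 2, the higher at 20.7, with 9.48 and 7.64 in the replicates, but its summit lay 1360 bp upstream of hmp-2 and only 180 bp upstream of K05C4.7.

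In the destruction complex, the glycogen synthase kinase gene gsk-3 had a region 160 bp upstream at 14.8, with 14.6 in replicate 1 and none there in replicate 2. A second gsk-3 region of 14.8 lay in its 3′ UTR, 277 bp upstream of nhx-8, with 7.26 and 5.16 in the replicates. The Axin gene pry-1 had 5 pooled regions, none above 11.05. The Axin-like gene axl-1 and the APC gene apr-1 had no pooled region. Replicate 1 alone gave 9.29 as the highest score at axl-1 and 7.10 at apr-1, and replicate 2 gave 5.84 and 6.38.

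**Figure D2:**
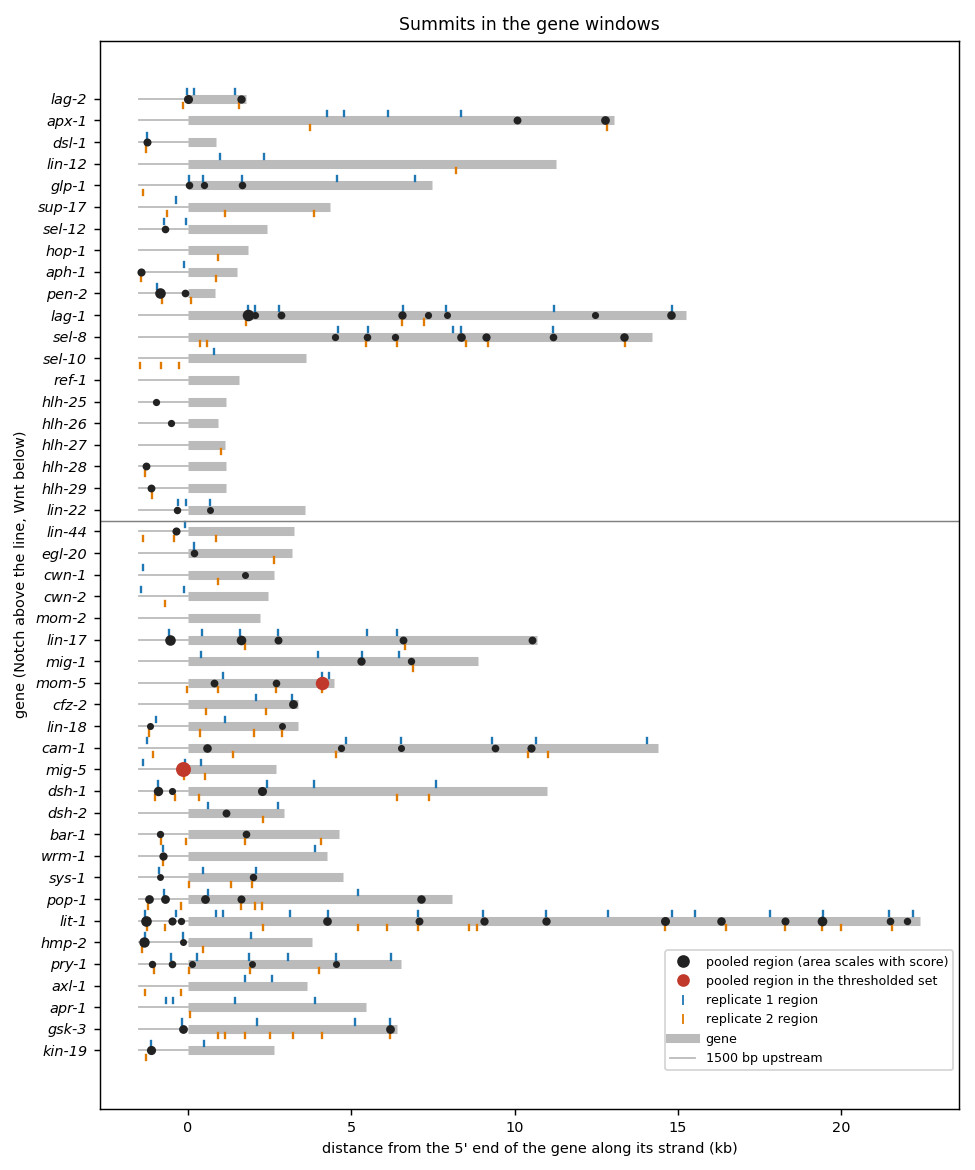
Position of each summit along the 45 genes, as distance in kb from the 5′ end (grey bars, genes; thin lines, 1500 bp upstream), with pooled regions as dots whose area scales with the score and regions of replicate 1 and 2 as ticks above and below. The 2 thresholded regions, in red, lie upstream of mig-5 and near the 3′ end of mom-5, and many ticks of the replicates do not face each other.

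Seen together, 35 of the 45 members (77.8%) had at least 1 pooled summit, against 51.3% of all protein-coding genes. In the list of replicate 1 the count was 36 (80%, against 66.5% of all genes), in that of replicate 2 it was 39 (86.7%, against 66.3%), and 34 members (75.6%) had a summit in both lists, against 49.5%. These shares cannot be compared directly, since the median window of the members was 5.07 kb and that of all genes 3.53 kb. Across the members, the number of summits went with window length, with Spearman's rho of 0.58 for the pooled list, 0.81 for replicate 1 and 0.61 for replicate 2 (n = 45 genes, which share the same libraries). The 5 members with the most pooled summits, lit-1, lag-1, sel-8 and a pair from the 4 genes that held 5 each, had 41.3% of all.

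Per kb of window the members held 0.30 pooled summits (90 in 302.3 kb, 95% exact Poisson interval 0.24 to 0.37), against 0.20 over all protein-coding genes. Replicate 1 gave 0.39 (0.32 to 0.47) against 0.30, and replicate 2 gave 0.35 (0.29 to 0.42) against 0.30. The interval of replicate 2 thus covers the value of all genes. The intervals cover counting error only and treat summits as independent. Upstream of the 5′ end the members held 0.44 pooled summits per kb (interval 0.30 to 0.64), against 0.22 for all genes, and in the gene body 0.26 (0.20 to 0.33), against 0.19. The upstream values were 0.47 in each replicate (0.32 to 0.67 in each), against 0.32 in each for all genes, so the lower bounds lie at the value of all genes. In the gene body they were 0.37 (0.29 to 0.45) in replicate 1 and 0.32 (0.25 to 0.40) in replicate 2, against 0.29 in each for all genes. Of the 90 distinct pooled summits, 29 lay upstream, 42 in introns, 7 in coding exons, 10 in 3′ UTRs and 2 in 5′ UTRs. The window of a coding gene outside the 45 also held 8 of them, and for 18 the nearest coding 5′ end was that of a gene outside the list.

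Wnt genes held more regions than Notch genes in each list. Of the 25 Wnt genes 21 (84%) had a pooled summit, 23 (92%) one in replicate 1 and 24 (96%) one in replicate 2. Of the 20 Notch genes the counts were 14 (70%), 13 (65%) and 15 (75%). Across all protein-coding genes the shares were 51.3%, 66.5% and 66.3%, so the Notch share in replicate 1 was near that of all genes. A summit in both replicate lists was found in 23 Wnt genes (92%) and 11 Notch genes (55%), against 49.5% of all protein-coding genes. The 7 bHLH genes, whose median window was 2.65 kb, gave 0 of these 11. Among these bHLH genes, 4 share much of their sequence with other places in the genome. Wnt windows were longer, with a median of 5.77 kb against 3.30 kb for Notch genes and 3.53 kb for all genes. Per kb of window, Wnt genes had 0.32 pooled summits (exact Poisson interval 0.24 to 0.41) and Notch genes 0.27 (0.18 to 0.38), and in replicate 2 the values were 0.41 (0.32 to 0.51) and 0.26 (0.17 to 0.37). In replicate 1 they were 0.44 (0.35 to 0.55) and 0.31 (0.22 to 0.43). All protein-coding genes had 0.20 in the pooled list and 0.30 in each replicate list. These values lay inside the Notch interval and below the Wnt interval in each list. Upstream there were 0.53 pooled summits per kb (0.33 to 0.82) at Wnt genes and 0.32 (0.15 to 0.61) at Notch genes. Wnt genes had the higher density in each list, the intervals overlap, and the difference between the pathways was not tested.

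**Figure D3:**
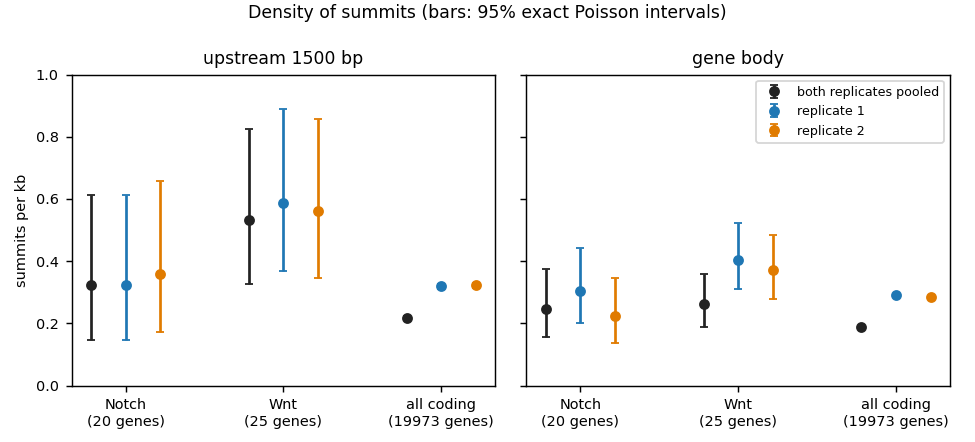
Summits per kb upstream of the 5′ end (left) and in the gene body (right) for Notch genes, Wnt genes and all protein-coding genes, in the pooled list and in each replicate, with 95% exact Poisson intervals that cover counting error only. Upstream of Wnt genes the 3 lists give 0.53, 0.59 and 0.56 per kb, and the intervals of Notch and Wnt genes overlap in both panels.

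Among ligands, receptors and nuclear factors, the nuclear factors of both pathways had 0.45 pooled summits per kb (38 in 7 genes), the receptors 0.28 (21 in 8 genes) and the ligands 0.19 (8 in 8 genes). In replicate 1 these values were 0.43, 0.40 and 0.31, and in replicate 2 they were 0.44, 0.26 and 0.27. The nuclear factors were the highest of these 3 roles in all 3 lists, whereas receptors and ligands were nearly level in replicate 2. The Axin, APC and kinase genes had 0.25 per kb in the pooled list but 0.56 in replicate 1 and 0.47 in replicate 2, above the nuclear factors in both replicates. The single gene lit-1, with 23.9 of the 84.0 kb of the nuclear factors, gave 13 of their 38 pooled regions. It gave 16 of 36 in replicate 1 and 14 of 37 in replicate 2. The Notch nuclear factor genes alone had 0.46 per kb in the pooled list, 0.37 in replicate 1 and 0.31 in replicate 2. In replicate 1 they were thus below the receptors, and the order of all roles without lit-1 was not worked out.

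Heights were ordinary. The median of the highest pooled score was 13.2 over the 35 members with a pooled region and 12.8 over all protein-coding genes with one. Among these members, it was 12.1 for Notch and 14.3 for Wnt genes. Wnt windows were longer, and the highest pooled score went with window length at a Spearman's rho of 0.33 (n = 35 members). The part of window length in the difference was not tested. Of the 12 members with the highest pooled scores, 9 were Wnt and 3 Notch genes, and their scores ran from 14.9 at pop-1 to 42.9 at mig-5. The summit was upstream of the gene in 9 of these 12.

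**Figure D4:**
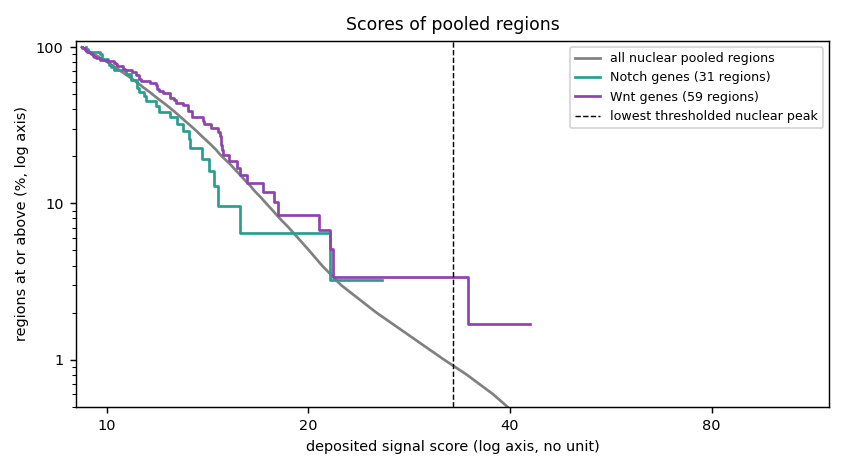
Share of pooled regions at or above each signal score (both axes logarithmic) for the 31 regions of Notch genes, the 59 regions of Wnt genes and all nuclear pooled regions, with the lowest thresholded peak as a dashed line. The Notch curve lies below that of all regions through the middle of the range (medians 11.4 for Notch, 12.4 for Wnt and 11.7 for all regions), and past the dashed line there are 2 Wnt regions and no Notch region.

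The replicates shared few sites at these genes, about as many as elsewhere. Of the 90 pooled summits, 26 lay in a region of both replicates (28.9%, Wilson interval 20.5 to 39.0), 32 in replicate 1 only, 22 in replicate 2 only and 10 in neither, and over the whole nuclear pooled list 25.3% were in both. Taking the replicate lists directly, 19.5% of the 118 replicate 1 summits in the windows lay in a replicate 2 region, against 17.4% over the nuclear genome. Agreement was more frequent at the top, where the highest summit was in both replicates at 9 of the 12 members with the highest scores and at 4 of the other 23. The pooled list was made from the same reads, so a high pooled score and a region in both replicates are not independent. Across the 34 members with a region in both lists, the highest scores of the replicates had a Spearman's rho of 0.38, and across all 45 members the number per kb had one of 0.18. Both are descriptions over genes that share the 2 libraries.

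Sequence at the member summits was searched for 3 motifs on either strand within 50 bp. AAAGTT was at 12 of 90 summits (13.3%, Wilson interval 7.79 to 21.9), against 20.1% of all nuclear pooled regions and 3.72% of thresholded nuclear peaks. It was at 2 of 31 Notch summits and 10 of 59 Wnt summits. TGGGAA, the core of LAG-1 sites, was at 8 of 90 (8.89%, interval 4.57 to 16.6), against 6.25% of pooled regions. CTTTGA, the core of TCF sites, was at 2 of 90 (2.22%, interval 0.61 to 7.74), against 7.15%. AAAGTT and CTTTGA can overlap on opposite strands, since AACTTT and CTTTGA share the letters CTTT. Mean GC content was 37.1% ± 10.1 (SD, n = 90) at the member summits, between that of all pooled regions and that of the thresholded peaks. Only the AAAGTT share fell in the order in which GC content rose, from all pooled regions to members to thresholded peaks, and the part of base composition was not tested.

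Other genes of the pathways again held few thresholded summits, but in the replicate lists the pathways were closer to each other than among the members. Of 17 further Notch genes, among them the coligand genes osm-11 and dos-3 and the nicastrin gene aph-2, none had a thresholded summit. A pooled summit was found in 14 (82.4%), against 51.3% of all protein-coding genes. The highest was 20.2, in a coding exon of dos-3, with 9.58 and 5.49 in the replicates. Of 16 further Wnt genes 13 (81.25%) had a pooled summit and mom-1 alone had a thresholded one, which 1.12% of all genes had. Median windows were 4.92 kb for the further Notch and 7.82 kb for the further Wnt genes. That of all genes was 3.53 kb, so these shares cannot be compared directly. mom-1, the porcupine gene that modifies Wnt ligands for secretion, had its summit in an intron, 3432 bp downstream of the 5′ end, with a pooled score of 98.2, 66.4 in replicate 1 and 33.1 in replicate 2. Its rank of 7 among 188 nuclear peaks was far above those of mig-5 and mom-5, and the mom-1 peak was known when this list was drawn up.

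Below the threshold, the Hox gene lin-39, a Wnt target in the vulval precursors, had an intron region of 28.8, with 18.2 and 13.2 in the replicates. The flamingo gene fmi-1 had 1 of 26.3, with 16.03 in replicate 2 and none at that place in replicate 1. The kinase gene mom-4 had 1 of 26.2, with 7.55 and 9.75 in the replicates. mom-4 lies only 3.49 kb from ztf-11, on the side away from mom-5, where regions were not counted by distance. Whether gene copies contribute at mom-4 was not tested. Per kb, the further Wnt genes had 0.31 and the further Notch genes 0.24 pooled summits, against 0.32 and 0.27 at the Wnt and Notch members. In each replicate list the further Wnt genes had 0.41 and the further Notch genes 0.38. A summit in both replicate lists was found in 87.5% of the further Wnt and 82.4% of the further Notch genes, against 92% and 55% of the members. Their median highest pooled scores were 17.9 and 14.7, against 14.3 and 12.1 for the members.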

How the data were processed

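ZTF-11 ChIP-seq was done on 2 biological replicates, per the labels. Per the text notes deposited with the samples, the authors called regions against a control in each replicate and in both pooled, keeping peaks and background, and derived a set thresholded by irreproducible discovery rate (IDR). The value used is the signal score the authors deposited for each region, with the deposited summit position. No source used here names the aligner, caller, IDR threshold or depth. The ce10 lists were not used here. Genes came from Ensembl release 115 (WBcel235, the same coordinates as ce11) and sequence from RefSeq. The members, lists and settings were chosen with earlier results of these data known. The naming rule took thresholded members, the 12 with the highest pooled scores, members with no region in any list, and all ligands, receptors and nuclear factors. It left other members to counts and ranges, and those given values here were named after their values were seen. Sequence was shown for the thresholded summit and up to 5 of the next highest members outside chromosome I. The sequence of 1 of these members is not reported here. Window, summit and motif counting was tested on simulated data. Alternatives changed the window, score floor, overlap rule, motif distance and replicate. Python 3.11.15, numpy 2.4.6, scipy 1.17.1 and matplotlib 3.10.9 were used.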

Additional observations from a re-analysis of the deposited data

How the results depend on the processing

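The results are descriptions with no test. Members with a thresholded summit fell from 2 to 1 with the promoter alone (mig-5), the gene body alone (mom-5), the stronger thresholded peaks (mig-5) and either replicate alone (1 to 1, mig-5). Members with a pooled region numbered 22 with the gene body alone. Leaving out a replicate meant using the other replicate's own list, which holds 29974 nuclear regions against 20201 in the pooled list. Members with a region in those lists numbered 36 in replicate 1 and 39 in replicate 2. Members with a region in both replicate lists numbered 20 with the promoter alone, 22 with the gene body alone and 21 with regions above each list's median. Pooled summits per kb at Notch genes were 0.12 above the list's median. At Wnt genes they were 0.29 with 500 bp upstream, 0.44 with the promoter alone, 0.26 with the gene body alone and 0.19 above the median. The longer replicate lists gave 0.31 and 0.26 per kb at Notch genes in replicates 1 and 2, and 0.44 and 0.41 at Wnt genes. Over all protein-coding genes the value was 0.20 in the pooled list and 0.30 in each replicate list. The median highest score was 13.8 with 500 bp upstream, 12.5 with the promoter alone, 13.8 with the gene body alone, 14.9 above the median, and 7.20 to 8.07 in the replicate lists, whose scores have another level. The share of pooled summits in both replicates was 18.4% when the pooled list and both replicate lists were each cut at their own median. That cut also removes replicate regions, so it does not compare stronger with weaker pooled summits. With summits within 100 bp the share was 16.7%. AAAGTT was at 6.67% within 25 bp and 31.1% within 100 bp, and at 16.9% to 16.98% in the replicate lists. Of all combinations of result and setting, printed here or not, 27 moved and 18 did not, a count being within 1.5 times its value and another value within its spread. No paired analysis was possible because there is 1 group. Depth is unknown, so absence of a region may be a matter of depth.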
